A study of Mus musculus with 6 samples.

Results

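The chemokine system was read in cells of the calvarial suture through the 50 genes on the array whose symbols begin with Ccl, Cxcl, Ccr, Cxcr or Ackr followed by a number. They are 31 chemokine ligands (19 CC and 12 CXC), 15 conventional chemokine receptors (9 CC and 6 CXC) and 4 atypical receptors, out of 19938 genes tested. Chemokines are small secreted proteins that attract white blood cells along a gradient. Their receptors are G protein-coupled, sit on the cells that migrate, and differ by cell type, so that B-cell precursors, neutrophils, monocytes and eosinophils each carry their own set. Atypical receptors bind chemokines without G protein signalling and remove or present them. In bone and its marrow this system holds blood precursors in place and lets mature cells leave.

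RNA was compared between Axin2+/GFP+ and Axin2-/GFP- cells sorted from suture mesenchyme, to ask how the Axin2-expressing cells differ from their neighbours. There were 3 samples of each population with 1 array per sample, and the labels call the samples of a population biological replicates. All mice, those that gave the Axin2-/GFP- cells included, carried the Axin2rtTA and TRE-H2BGFP transgenes on a mixed C57BL/6J, CD-1 and B6CBAF2 background. They received doxycycline on postnatal days 25 to 28 and were used at day 28. Each sample pooled the cells of 6 to 8 mice, which were released by 0.2% collagenase before the GFP sort. In these mice the Axin2rtTA transgene supplies rtTA, a transcription factor that needs doxycycline. The rtTA switches on a histone-GFP fusion, so the gate follows that nuclear label and not a surface marker. No antibody against blood cells is named for this sort, and the array data hold strong signal of blood cell genes in both populations. Of 13 measured suture mesenchyme and skeleton markers, 10 were above the faint-signal mark, defined next, in each population, and 4 were called higher in Axin2+/GFP+ cells (Col1a1, Col1a2, Col3a1 and Ibsp). Axin2 itself read 2.89, 2.54 and 3.07 in Axin2+/GFP+ cells, against 2.18, 2.27 and 2.38 in Axin2-/GFP- cells, with no overlap, and was not called (limma, adjusted p = 0.0802).

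Values are the deposited log2 expression values, and a change is Axin2+/GFP+ minus Axin2-/GFP- on that scale, given ± its standard error (SE). A gene was called at an adjusted p under 0.05 in limma with Benjamini-Hochberg adjustment over all 19938 genes. The range of faint signal was taken from 1190 olfactory and vomeronasal receptor genes, and the 95th percentile of their population means is called here the faint-signal mark. It stood at 3.0 in Axin2+/GFP+ cells and 2.73 in Axin2-/GFP- cells. In sorted bulk samples, fewer cells of a type and less RNA per cell cannot be told apart.

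Most of the 50 genes were faint. In Axin2+/GFP+ cells 18 of them (36%) lay above the mark, against 44.3% of all genes, and in Axin2-/GFP- cells 23 of them (46%), against 50.1% of all genes. The 18 were above it in both populations and comprised 14 ligands and 4 receptors, namely Ccr2, Ccr7, Cxcr2 and Cxcr4. Another 5 genes were above the mark in Axin2-/GFP- cells without being so in Axin2+/GFP+ cells (Ccr9, Ccr10, Cxcr5, Cxcl13 and Cxcl16), and none showed the opposite. The mark is lower in Axin2-/GFP- cells, which bears on this split. Ccr10 averaged 2.95 in Axin2+/GFP+ cells and 2.93 in Axin2-/GFP- cells, and Cxcl16 averaged 2.85 and 3.01. Cxcl13 passed through Axin2-/GFP- replicate 2 alone. Among the 18, Cxcl9 passed in Axin2+/GFP+ cells through replicate 1 alone (3.79, against 2.91 and 2.70). Likewise Ccl11 passed in Axin2-/GFP- cells through replicate 3 alone (3.25, against 2.60 and 2.59). The remaining 27 genes, among them the 4 atypical receptors, were below the mark in both.

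**Figure D1:**
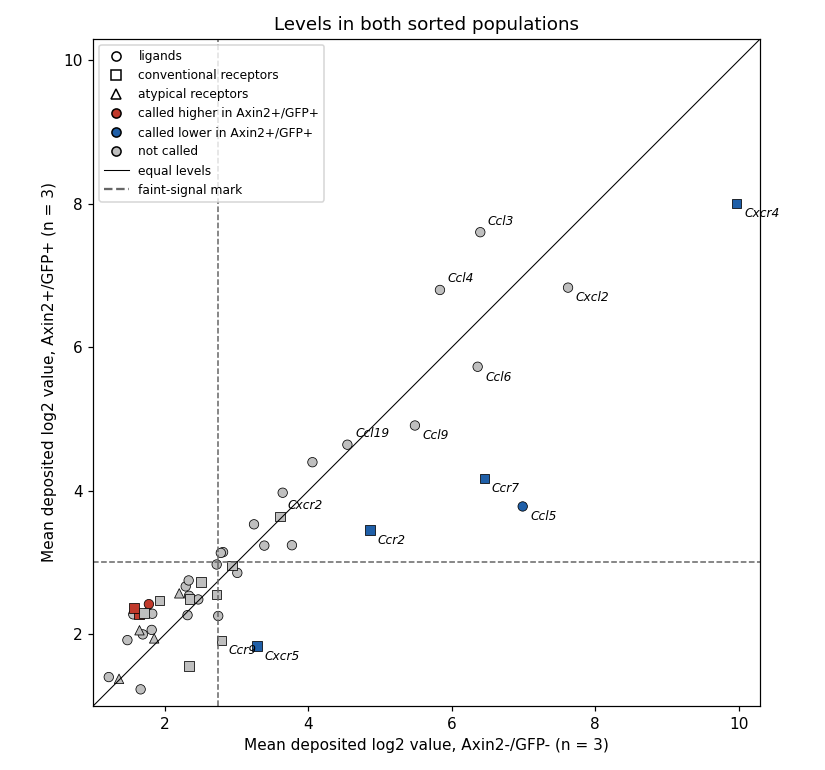
Mean deposited log2 value of each of the 50 genes in Axin2+/GFP+ cells (vertical axis) against its mean in Axin2-/GFP- cells (horizontal axis), with 3 samples behind each mean. Circles are ligands, squares conventional receptors and triangles atypical receptors, coloured by the limma call, the solid line marks equal levels and the dashed lines the faint-signal marks at 3.0 and 2.73. Cxcr4 is the brightest gene in both populations, the genes called lower lie to the right of the line, and the genes called higher lie in the faint corner.

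Among the 50 genes, 3 were called higher (Ccr4, Ccr3 and Cxcl5) and 5 lower (Ccl5, Ccr7, Cxcr4, Cxcr5 and Ccr2). These are 6% and 10% of the genes, beside 4.64% of all genes called higher and 11.4% called lower, so the shares lay near those of the whole array. The median change of the 50 genes was 0.19, beside 0.14 over all genes. The values of the 2 populations did not overlap for 12 genes that were higher and 6 that were lower (24% and 12%), beside 23.1% and 17.8% of all genes. The direction differed with brightness: the genes called higher were below the faint-signal mark in both populations, while each gene called lower was above it in Axin2-/GFP- cells. Receptors made up 6 of the 8 called genes, with 2 of 19 receptors higher and 4 of 19 lower, and 1 of 31 ligands was called in each direction.

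**Figure D2:**
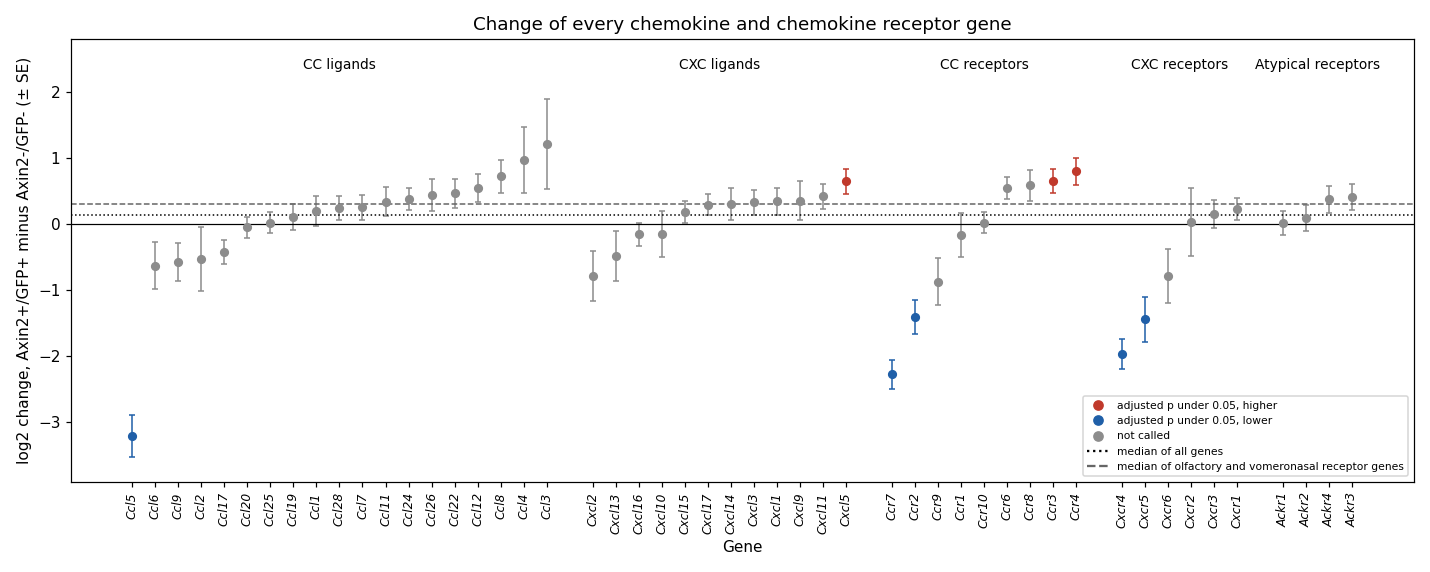
Change of each of the 50 genes between Axin2+/GFP+ and Axin2-/GFP- cells on the log2 scale with its SE, grouped by class and sorted within each class, with the gene on the horizontal axis. Red and blue points passed an adjusted p of 0.05 in limma, and the horizontal lines mark the medians of all genes (0.14) and of the olfactory and vomeronasal receptor genes (0.30). Ccl5 at -3.21 and Ccr7 at -2.28 lie lowest, and Ccl3 at 1.21 lies highest with a wide error.

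Cxcr4 was the brightest of the 50 genes in both populations. It encodes the receptor that retains blood stem cells, B-cell precursors and neutrophils in bone marrow. Its log2 values were 8.38, 7.54 and 8.08 in Axin2+/GFP+ cells, against 9.84, 10.03 and 10.03 in Axin2-/GFP- cells. The 3 Axin2-/GFP- samples lay within 0.19 of each other and above every Axin2+/GFP+ sample. The change was -1.97 ± 0.23, a 3.91-fold lower level in Axin2+/GFP+ cells (limma, adjusted p = 0.00114). Cxcr4 nevertheless stayed 5 log2 units above the faint-signal mark in Axin2+/GFP+ cells, with a mean of 8.00 ± 0.43 (SD, n = 3).

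Ccr7 guides lymphocytes and mature dendritic cells into lymph nodes. It read 4.31, 4.49 and 3.71 in Axin2+/GFP+ cells, against 6.53, 6.37 and 6.46 in Axin2-/GFP- cells, with no overlap. The change of -2.28 ± 0.22 corresponds to a 4.85-fold lower level (limma, adjusted p = 0.000548). Cxcr5, the receptor that brings B cells into follicles, was much dimmer. Its values were 1.74, 2.10 and 1.67 in Axin2+/GFP+ cells and 2.99, 4.11 and 2.74 in Axin2-/GFP- cells. Thus Cxcr5 was below the faint-signal mark in Axin2+/GFP+ cells and above it in each Axin2-/GFP- sample, replicate 3 by a narrow margin. Cxcr5 changed by -1.45 ± 0.34 (limma, adjusted p = 0.0225), and the call was lost without Axin2+/GFP+ replicate 1 (adjusted p = 0.0547) or replicate 3 (adjusted p = 0.0574).

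Ccr2 is carried by inflammatory monocytes, which need it to leave the marrow. Its values of 3.08, 3.96 and 3.32 in Axin2+/GFP+ cells were all under the 5.05, 5.01 and 4.52 of Axin2-/GFP- cells. The change was -1.41 ± 0.26, a 2.65-fold lower level (limma, adjusted p = 0.00895).

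Ccl5 was the ligand that fell, and it showed the largest change of the 50 genes as deposited. Activated T cells, natural killer cells, platelets and macrophages are known sources of this protein, which attracts T cells, monocytes and eosinophils. Ccl5 had values of 3.89, 3.76 and 3.69 in Axin2+/GFP+ cells, which sit close together, against 7.56, 7.19 and 6.21 in Axin2-/GFP- cells. The lowest Axin2-/GFP- value was more than 2 log2 units above the highest Axin2+/GFP+ value, and the change was -3.21 ± 0.32, or 9.23-fold lower (limma, adjusted p = 0.000566).

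**Figure D3:**
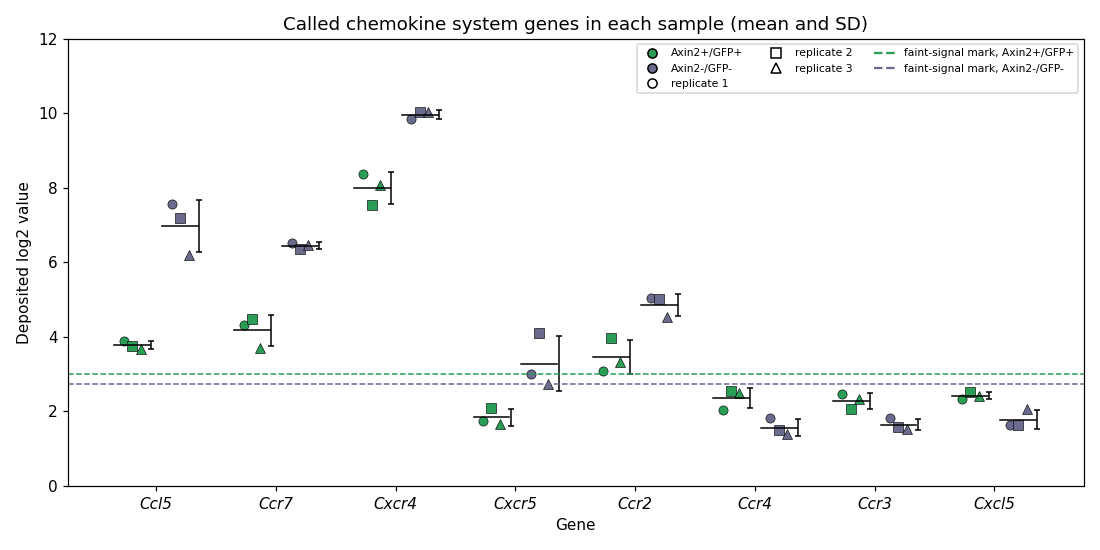
Deposited log2 value (vertical axis) of the 8 called genes in each sample, with Axin2+/GFP+ in green at the left and Axin2-/GFP- in grey at the right of each gene, a bar for the mean and an error bar for the SD (n = 3). Point shapes give the replicate and dashed lines the faint-signal mark of each population. The 5 genes at the left have all Axin2-/GFP- samples above all Axin2+/GFP+ samples, and the 3 at the right lie under both dashed lines.

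Markers of blood cell types were read beside these genes. Of 12 measured B-lineage markers 12 were called lower in Axin2+/GFP+ cells, with a median change of -4.73, and their summed level on the linear scale was 93.8 to 104 in Axin2+/GFP+ samples, against 1878 to 2615 in Axin2-/GFP- samples. Of 12 T and natural killer cell markers 3 were called lower (Cd2, Il7r and Nkg7), with a median change of -0.15 over the list and sums of 90.4 to 122 in Axin2+/GFP+ samples and 402 to 439 in Axin2-/GFP- samples. Most of the Axin2-/GFP- sums came from Cd2 and Il7r, which averaged 7.37 and 7.19 there, against 3.69 and 3.48 in Axin2+/GFP+ cells. Of this list 6 genes were above the faint-signal mark in Axin2+/GFP+ cells and 7 in Axin2-/GFP- cells, and the T-cell receptor chains Cd3d, Cd3e and Cd3g averaged 2.0, 3.27 and 2.1 in Axin2+/GFP+ cells and 2.08, 3.48 and 2.26 in Axin2-/GFP- cells. Of 14 monocyte and macrophage markers 3 were called lower (Cd68, Ly86 and Mpeg1), with a median change of 0.03 over the list and sums of 154 to 198 in Axin2+/GFP+ samples and 224 to 364 in Axin2-/GFP- samples. Of these, 6 were above the mark in Axin2+/GFP+ cells and 7 in Axin2-/GFP- cells. Dendritic cell markers had 1 of 8 called lower (Siglech), with a median change of -0.11 and sums of 54.2 to 94.6 in Axin2+/GFP+ samples and 92.2 to 133 in Axin2-/GFP- samples. The part of these cells in the lower Cxcr4, Ccr7, Cxcr5, Ccr2 and Ccl5 values was not tested.

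The 3 genes called higher were faint. Ccr4, a receptor of regulatory and type 2 helper T cells, had values of 2.04, 2.54 and 2.50 in Axin2+/GFP+ cells, against 1.81, 1.5 and 1.39 in Axin2-/GFP- cells. Its change was 0.80 ± 0.21 (limma, adjusted p = 0.0336). Ccr3, the eotaxin receptor of eosinophils, had values of 2.47, 2.05 and 2.33, against 1.81, 1.57 and 1.53 in Axin2-/GFP- cells, a change of 0.64 ± 0.18 (limma, adjusted p = 0.0465). Cxcl5, which attracts neutrophils through Cxcr2, read 2.34, 2.51 and 2.41 in Axin2+/GFP+ cells and 1.63, 1.62 and 2.07 in Axin2-/GFP- cells. Its change was likewise 0.64 ± 0.19 (limma, adjusted p = 0.0486). For all 3 genes the samples of the populations did not overlap, yet the olfactory and vomeronasal receptor genes, most of them fainter still, had a median change of 0.30, with 58 of 1190 called higher and 1 called lower. None of the 3 calls passed under median centring, quantile normalization, cyclic loess or centring on those receptor genes, where the changes lay between 0.32 and 0.68, and each of the 3 calls held in 1 of the 6 fits that leave out a single sample. Beside Ccr3, the markers of eosinophils, basophils and mast cells had 4 of 9 called higher (Epx, Prg2, Mcpt8 and Gata2), with a median change of 0.21 over the list. The 5 not called changed by -0.44 (Mcpt4) to 0.21 (Cpa3). Summed levels were 757 to 1136 in Axin2+/GFP+ samples and 131 to 383 in Axin2-/GFP- samples. Prg2 was the brightest of the list, with means of 9.54 and 6.49. The part of these cells in the Ccr3 value was not tested.

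**Figure D4:**
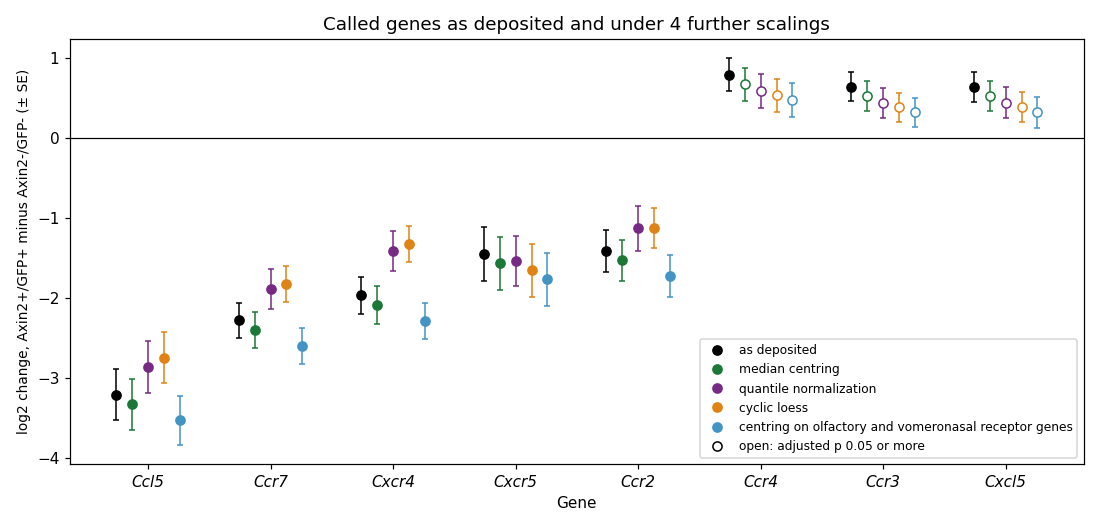
Change of the 8 called genes (log2, Axin2+/GFP+ minus Axin2-/GFP-, ± SE, vertical axis) for the values as deposited and under 4 further scalings of the arrays, with filled points for an adjusted p under 0.05 in limma. The 5 genes at the left stay filled throughout, with Cxcr4 reaching its smallest size of -1.32 under cyclic loess, and the 3 at the right are filled as deposited alone.

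Upstream sequence was examined for the called genes, of which 4 have an entry in the RefSeq promoter table for GRCm38.p6. It is shown for Cxcr4, the brightest gene, and for Ccr2 and Ccr3, which are neighbours in the RefSeq gene order and were called in opposite directions. Each run is the 250 bases before the annotated start, 5′ to 3′ on the gene's strand, counted back from -1 at the base before the start. Capitals mark the letters TATAAA of a TATA box or GGGNNNTTCC, a form of the kappa B motif bound by NF-kappa B, on either strand. The runs cover chr1:128592300-128592549 on the minus strand for Cxcr4, chr9:124101933-124102182 on the plus strand for Ccr2 and chr9:124021721-124021970 on the plus strand for Ccr3.
Cxcr4: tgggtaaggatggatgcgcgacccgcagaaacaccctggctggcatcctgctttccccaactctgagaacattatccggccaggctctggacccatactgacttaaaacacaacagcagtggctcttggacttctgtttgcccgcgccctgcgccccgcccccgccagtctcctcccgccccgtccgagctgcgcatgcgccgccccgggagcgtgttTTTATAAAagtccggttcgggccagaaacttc
Ccr2: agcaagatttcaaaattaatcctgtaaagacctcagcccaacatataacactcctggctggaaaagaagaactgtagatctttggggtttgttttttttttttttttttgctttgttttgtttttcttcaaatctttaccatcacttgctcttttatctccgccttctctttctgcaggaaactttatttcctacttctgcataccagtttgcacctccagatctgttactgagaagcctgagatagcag
Ccr3: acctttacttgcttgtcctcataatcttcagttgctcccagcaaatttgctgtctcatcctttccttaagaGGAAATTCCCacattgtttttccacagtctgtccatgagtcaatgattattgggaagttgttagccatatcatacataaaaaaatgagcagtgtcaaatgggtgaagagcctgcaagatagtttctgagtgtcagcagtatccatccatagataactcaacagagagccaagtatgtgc

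In the Cxcr4 run 2 overlapping TATAAA matches, 1 on each strand, span -32 to -25, and no kappa B form was found. Ccr3 held 1 kappa B form at -179 to -170, and Ccr2 held neither motif. Of the 50 genes, 36 have an entry in the table. TATAAA stood in 11 of these (8 ligands and 3 receptors), beside 12.4% of all 32851 promoter entries cut to the same 250 bases. The kappa B form stood in 9 (7 ligands and 2 receptors), beside 4.65% of all entries: Ccl1, Ccl9, Ccl20, Cxcl1, Cxcl2, Cxcl3, Cxcl10, Ccr3 and Ccr6. These counts are of genes with a match in any of their entries, while the percentages are shares of single entries. The 2 are therefore not in the same unit. A match is a run of letters and not a measured site. The 9 genes with the kappa B form moved in both directions, with changes between -0.79 for Cxcl2 and 0.64 for Ccr3.

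Apart from Ccl5, the brightest ligands were Ccl3, Ccl4, Cxcl2, Ccl6 and Ccl9, and none of them passed the test. Ccl3 and Ccl4 are inflammatory CC chemokines that macrophages and lymphocytes release on activation. Ccl3 read 8.97, 7.83 and 6.01 in Axin2+/GFP+ cells, against 7.30, 6.06 and 5.84 in Axin2-/GFP- cells. Replicate 1 was the highest of each population, and the lowest Axin2+/GFP+ sample fell among the Axin2-/GFP- samples. The change was 1.21 ± 0.68 (limma, adjusted p = 0.236). Ccl4, its neighbour in the genome, read 7.36, 7.61 and 5.43, against 6.11, 5.61 and 5.79 in Axin2-/GFP- cells. Here Axin2+/GFP+ replicate 3 was the lowest of all 6 samples and the other two were the highest, giving a change of 0.96 ± 0.50 (limma, adjusted p = 0.207). The size of both changes varied with the sample left out. Without Axin2+/GFP+ replicate 3, Ccl3 changed by 2.0 ± 0.49 (limma, adjusted p = 0.034) and Ccl4 by 1.65 ± 0.22 (limma, adjusted p = 0.0039), while Ccl3 changed by 0.52 without Axin2+/GFP+ replicate 1 and Ccl4 by 0.56 without Axin2+/GFP+ replicate 2.

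Cxcl2 calls neutrophils through Cxcr2 and ranked 3 in Axin2+/GFP+ cells and 2 in Axin2-/GFP- cells by level among the 50 genes. It had values of 7.27, 7.0 and 6.23 in Axin2+/GFP+ cells and 8.36, 7.04 and 7.46 in Axin2-/GFP- cells. The lowest Axin2-/GFP- sample lay below the highest Axin2+/GFP+ sample, and the change was -0.79 ± 0.37 (limma, adjusted p = 0.172). The rodent myeloid chemokine Ccl6 had values of 6.29, 5.43 and 5.47, against 7.07, 6.22 and 5.80 in Axin2-/GFP- cells, a change of -0.63 ± 0.35 (limma, adjusted p = 0.233). Its close relative Ccl9 read 5.22, 4.52 and 4.99, against 5.86, 5.67 and 4.93, a change of -0.58 ± 0.28 (limma, adjusted p = 0.187). The populations overlapped in both genes, for Ccl9 through Axin2-/GFP- replicate 3 alone.

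**Figure D5:**
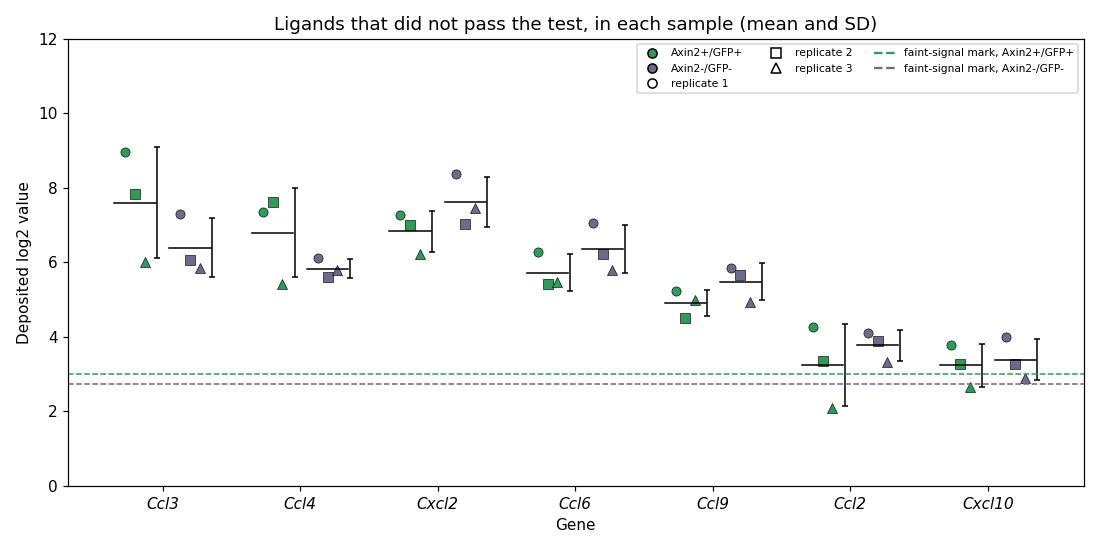
Deposited log2 value (vertical axis) of 7 ligands that did not pass the test in each sample, with Axin2+/GFP+ in green at the left and Axin2-/GFP- in grey at the right of each gene, a bar for the mean and an error bar for the SD (n = 3). Point shapes give the replicate and dashed lines the faint-signal marks. For Ccl3, Ccl2, Cxcl10, Ccl6, Ccl9 and Cxcl2 the circle of replicate 1 is the highest point of each population. Ccl3 and Ccl4 spread over more than 2 log2 units in Axin2+/GFP+ cells.

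Ccl2, which draws monocytes through Ccr2, spread widely too. Its values were 4.27, 3.37 and 2.08 in Axin2+/GFP+ cells and 4.10, 3.90 and 3.31 in Axin2-/GFP- cells, so that the difference between populations was smaller than the spread within Axin2+/GFP+ cells. The interferon-induced ligand Cxcl10 read 3.78, 3.28 and 2.64, against 3.99, 3.27 and 2.90 in Axin2-/GFP- cells. In both genes replicate 1 was the highest sample of each population and replicate 3 the lowest. The same was true of Ccl3.

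Cxcl2 lies beside its relatives Cxcl1 and Cxcl3, which also attract neutrophils through Cxcr2, with Cxcl15 between Cxcl3 and Cxcl1. Cxcl1 averaged 4.40 ± 0.33 in Axin2+/GFP+ cells and 4.06 ± 0.09 in Axin2-/GFP- cells (SD, n = 3 each), and Cxcl3 averaged 3.97 ± 0.17 and 3.64 ± 0.22. Their values overlapped between populations, with Axin2+/GFP+ means above, whereas the Cxcl2 mean was below. All 3 genes carry the kappa B form close to the start. The 110 bases before the start are shown, with TATAAA and the kappa B form in capitals, for Cxcl2 (chr5:90903789-90903898), Cxcl1 (chr5:90891135-90891244) and Cxcl3 (chr5:90785991-90786100), all on the plus strand of GRCm38.p6 and taken from RefSeq.
Cxcl2: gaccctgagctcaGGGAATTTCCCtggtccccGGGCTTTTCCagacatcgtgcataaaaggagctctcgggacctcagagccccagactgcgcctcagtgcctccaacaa
Cxcl1: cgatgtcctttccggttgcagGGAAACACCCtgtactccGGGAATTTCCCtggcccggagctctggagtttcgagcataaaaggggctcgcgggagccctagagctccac
Cxcl3: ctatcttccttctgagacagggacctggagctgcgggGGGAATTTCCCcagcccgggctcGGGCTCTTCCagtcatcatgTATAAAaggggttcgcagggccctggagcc

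Each window holds 3 matches to the kappa B form, of which 2 overlap, being the same letters read on both strands with a shift of 1 base. The matches cover -97 to -87 and -78 to -69 in Cxcl2, -89 to -80 and -71 to -61 in Cxcl1, and -73 to -63 and -50 to -41 in Cxcl3. Cxcl3 also holds TATAAA at -30 to -25. The receptor of these ligands, Cxcr2, had uneven values of 3.17, 4.62 and 3.14 in Axin2+/GFP+ cells and 4.13, 2.53 and 4.15 in Axin2-/GFP- cells, with the single high and the single low sample both in replicate 2. Its means were 3.64 ± 0.85 and 3.60 ± 0.93 (SD, n = 3 each), and Cxcr1, its neighbour, lay below the faint-signal mark in both populations. Neutrophil and precursor markers, given here as a measured fact, had 13 of 15 called higher, beside 4.64% of all genes. The 2 not called were Mmp9, with a change of 0.78 ± 0.29, and Csf3r, with -0.46 ± 0.32. Summed levels of the list were 20380 to 22670 in Axin2+/GFP+ samples and 2882 to 9128 in Axin2-/GFP- samples. The brightest of the list, S100a8, averaged 12.49 and 10.89.

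Many of these genes lie next to each other. In the RefSeq order of protein-coding genes, 21 of the 50 genes fall into 6 runs without another gene between them. The run Ccl5, Ccl9, Ccl6, Ccl3 and Ccl4 held the lowest and the highest change of all 50 genes, with -3.21, -0.58, -0.63, 1.21 and 0.96. In the run Ccl2, Ccl7, Ccl11, Ccl12, Ccl8 and Ccl1 the changes were -0.53, 0.25, 0.33, 0.54, 0.72 and 0.20, and none was called. The run Cxcl3, Cxcl15, Cxcl1 and Cxcl2 changed by 0.33, 0.19, 0.34 and -0.79, and the pairs Ccl26 and Ccl24, Cxcr2 and Cxcr1, and Ccr3 and Ccr2 by 0.44 and 0.38, 0.03 and 0.23, and 0.64 and -1.41. Within the run that starts at Ccl2, the monocyte attractants Ccl12 and Ccl8 were faint and did not overlap between the populations. Ccl8 read 2.20, 2.78 and 1.85 in Axin2+/GFP+ cells and 1.48, 1.73 and 1.46 in Axin2-/GFP- cells (limma, adjusted p = 0.0798). The eotaxin Ccl11 averaged 3.14 ± 0.15 in Axin2+/GFP+ cells and 2.81 ± 0.38 in Axin2-/GFP- cells (SD, n = 3 each), and Ccl7 averaged 2.97 ± 0.12 and 2.72 ± 0.28.

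The ligands of Ccr7, Cxcr5, Ccr2, Ccr4 and Ccr3 read here were not called, Ccl5 aside. Ccl19, which acts through Ccr7, averaged 4.64 ± 0.23 in Axin2+/GFP+ cells and 4.54 ± 0.22 in Axin2-/GFP- cells (SD, n = 3 each), a change of 0.10 ± 0.20, while Ccr7 itself changed by -2.28. The array holds 5 features for Ccl19, whose gene has near-identical copies, so its level is uncertain, and the other 4 features differed by -0.09 to 0.01. Cxcl13, the ligand of Cxcr5, read 2.31, 1.90 and 2.55 in Axin2+/GFP+ cells and 2.27, 3.70 and 2.26 in Axin2-/GFP- cells, where 1 sample, replicate 2, stood apart. That same Axin2-/GFP- replicate 2 had the highest Cxcr5 value. Ccl17 and Ccl22, which act through Ccr4, were both below the faint-signal mark. Ccl17 read 1.15, 1.34 and 1.20 in Axin2+/GFP+ cells, all below the 1.40, 1.83 and 1.76 of Axin2-/GFP- cells, with a change of -0.43 ± 0.18 (limma, adjusted p = 0.136), and Ccl22 averaged 2.28 ± 0.38 and 1.82 ± 0.03. The Ccr3 ligand Ccl24 averaged 2.67 ± 0.13 in Axin2+/GFP+ cells and 2.29 ± 0.08 in Axin2-/GFP- cells without overlap, also below the mark.

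The other conventional receptors did not pass the test, and Ccr9 and Ccr10 were above the faint-signal mark in Axin2-/GFP- cells alone. For Ccr10 this reflects the lower mark there, as its means in the populations were close. Ccr9, which directs lymphocytes to the gut and thymus precursors to the thymus, read 1.81, 2.57 and 1.36 in Axin2+/GFP+ cells and 3.34, 2.75 and 2.27 in Axin2-/GFP- cells, a change of -0.87 ± 0.35 (limma, adjusted p = 0.122). Cxcr6, a receptor of tissue-resident T cells, had 1 Axin2-/GFP- sample at 3.32, and its other 5 samples lay between 1.27 and 2.11. Ccr6, carried by B cells and by type 17 helper T cells, read 2.64, 2.46 and 2.30 in Axin2+/GFP+ cells, above the 1.97, 1.98 and 1.81 of Axin2-/GFP- cells, with a change of 0.54 ± 0.17 (limma, adjusted p = 0.0636). Ccr1, a receptor of Ccl3, Ccl6 and Ccl9 on myeloid cells, averaged 2.55 ± 0.36 and 2.72 ± 0.66. Ccr8, Ccr10 and Cxcr3, found on subsets of T cells, had means of 2.29, 2.95 and 2.49 in Axin2+/GFP+ cells and 1.71, 2.93 and 2.34 in Axin2-/GFP- cells.

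Atypical receptors gave no call. Ackr4, which removes Ccl19 and Ccl25, was the brightest with a mean of 2.57 ± 0.31 in Axin2+/GFP+ cells and 2.20 ± 0.20 in Axin2-/GFP- cells. Ackr3 had values of 2.20, 1.96 and 2.01 in Axin2+/GFP+ cells, just above the 1.70, 1.92 and 1.31 of Axin2-/GFP- cells. Ackr2, a scavenger of inflammatory CC chemokines, and Ackr1, which displays chemokines on endothelium and red cells, had means of 1.94 and 1.38 in Axin2+/GFP+ cells and 1.85 and 1.36 in Axin2-/GFP- cells. Endothelial markers had 0 of 10 called higher and 1 of 10 called lower, namely Pecam1. Of the remaining ligands, Ccl1, Ccl20, Ccl25, Ccl26, Ccl28, Cxcl11, Cxcl14 and Cxcl15 were below the mark in both populations, Cxcl16 was above it in Axin2-/GFP- cells, and Cxcl9 and Cxcl17 were above it in both. Their changes ran between -0.15 for Cxcl16 and 0.44 for Ccl26.

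Chemokine system genes outside the naming rule were read in the same test. Of 12 measured genes 0 were called higher and 1 lower, with a median change of -0.64, beside 0.14 over all genes. The called gene was Pf4, the platelet chemokine, which averaged 3.21 ± 0.86 in Axin2+/GFP+ cells and 5.78 ± 0.31 in Axin2-/GFP- cells (SD, n = 3 each), a change of -2.57 ± 0.39 (limma, adjusted p = 0.0037). Of 5 megakaryocyte and platelet markers Pf4 was the one called. Ppbp averaged 4.59 in Axin2+/GFP+ cells and 5.56 in Axin2-/GFP- cells, a change of -0.97 ± 0.64. Treml1, above the mark in both populations, averaged 3.43 in each, a change of -0.001 ± 0.15. Itga2b and Gp9 were faint with changes of 0.35 and -0.01, and the part of platelets in the Pf4 value was not tested. Xcl1, a chemokine of natural killer and CD8 T cells, changed by -1.37 ± 0.43 (limma, adjusted p = 0.0639). It read 3.10, 3.41 and 3.44 in Axin2+/GFP+ cells and 5.54, 4.94 and 3.56 in Axin2-/GFP- cells, where replicate 3 lay close to the Axin2+/GFP+ samples. Its receptor Xcr1 changed by 0.63 ± 0.19 (limma, adjusted p = 0.0507) at a level below the faint-signal mark. Cx3cr1, the fractalkine receptor of monocytes, changed by -0.65 ± 0.20 (limma, adjusted p = 0.0613), with Axin2+/GFP+ samples all below Axin2-/GFP- samples.

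Signalling genes downstream of chemokine receptors had 1 of 29 called higher and 4 of 29 lower, with a median change of -0.05, beside 4.64% and 11.4% of all genes and a median of 0.14, so the shares lay near those of the whole array. Arrb2, the beta-arrestin that uncouples and internalizes activated receptors, rose by 2.26 ± 0.23 to a mean of 7.57 in Axin2+/GFP+ cells, against 5.32 in Axin2-/GFP- cells (limma, adjusted p = 0.000646). Rgs16, which shortens G protein signals, fell by 1.76 (limma, adjusted p = 0.0035). The leukocyte phosphoinositide 3-kinase subunits Pik3cd and Pik3cg fell by 1.42 and 1.30, and Dock2, the Rac activator of migrating lymphocytes and neutrophils, fell by 0.95. Both Rac genes of the list were bright in each population: Rac1 averaged 7.19 and 7.24, and the blood-specific Rac2 averaged 8.23 and 8.08.

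Adhesion and homing genes had 3 of 14 called higher and 4 of 14 lower, with a median change of -0.09, beside the same 4.64%, 11.4% and 0.14 over all genes. The integrin chains of neutrophils and monocytes, Itgam and Itgb2, rose by 1.68 and 0.73, and Vcam1, a ligand of integrin alpha 4 on stroma, rose by 1.07. Itga4, that integrin chain, fell by 2.12 (limma, adjusted p = 0.000281), Pecam1 fell by 2.23, Icam2 by 1.01 and the selectin ligand Selplg by 0.77. Among 10 other leukocyte chemoattractant receptors 1 was called higher and 1 lower, with a median change of 0.02. Ltb4r1, the leukotriene B4 receptor of neutrophils, rose by 1.46 ± 0.39 (limma, adjusted p = 0.0386). S1pr1, which lets lymphocytes leave for the blood, averaged 2.81 ± 0.47 in Axin2+/GFP+ cells and 6.03 ± 0.61 in Axin2-/GFP- cells (SD, n = 3 each), a change of -3.22 ± 0.34 (limma, adjusted p = 0.000693) close in size to that of Ccl5. The complement receptor C5ar1 and the oxysterol receptor Gpr183 changed by 0.59 ± 0.24 and -0.56 ± 0.21 and were not called. B-lineage markers were lower and most neutrophil markers higher in Axin2+/GFP+ cells, as given above, and the part of those cells in these lists was not tested.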

How the data were processed

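Total RNA of 6 sorted samples, 3 of Axin2+/GFP+ and 3 of Axin2-/GFP- cells, was hybridised to Affymetrix whole-transcript arrays. The values deposited by the authors are on the log2 scale, 1 per array feature. RMA and R 3.2.1 are named in the processing notes of the submitters, and the level of probe summary and version of the annotation were not stated. No further normalization was applied for the main results. The upper quartile was 3.72 to 3.76 in Axin2+/GFP+ samples and 3.97 to 4.00 in Axin2-/GFP- samples, and samples of a population correlated at 0.891 to 0.957.

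Of 35557 features, 21789 carry 1 gene symbol, 1621 several and 12147 are unnamed here, and gene identifiers tied 21698 of the first to RefSeq entries, with 0 names changed. Each gene was read by its brightest feature, leaving 19938 genes. The 50 genes studied have 55 features, 5 of them for Ccl19 and 2 for Ccl25. The 7 features of Ccl21 and Ccl27 genes carry several symbols and were left out, and 1 further CXC ligand is not reported here.

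Changes were fitted in R 4.3.3 with lmFit and eBayes of limma 3.58.1, with group as the single term, after a test on simulated data. Members, lists, tests and alternatives were chosen with earlier results of these data known. Full values are given for called genes, for genes whose populations do not overlap with a change of at least 1, for the 5 brightest in each population and for up to 4 genes of each list with the smallest p. Other values were chosen after they were seen. Motifs were searched in the 250 bases before each start. Alternatives were the t-test of the methods, a limma trend, weights for arrays, the replicate block, 4 scalings, a filter on a mean log2 value of 3, all features or their mean in place of the brightest, and the omission of single samples. P-values measure the spread between these pooled samples, and 3 arrays per population limit the precision.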

Additional observations from a re-analysis of the deposited data

How the results depend on the processing

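Of the 18 members whose values were followed, each kept its direction under the 17 alternatives wherever it was tested. The dim filter left 9 of them untested (Ccl8, Ccl12, Ccl17, Ccr3, Ccr4, Ccr6, Ccr9, Cxcl5 and Cxcr5). The calls of Ccl5, Ccr7 and Cxcr4 held in each. Ccr2 lost its call under the methods' t-test (adjusted p = 0.0904) and Cxcr5 under that test (adjusted p = 0.138) and without Axin2+/GFP+ replicate 1 or 3. Over all 50 genes, 33 kept their sign under every alternative that tested them and 14 changed it under at least 1 of 4 scalings.

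Members called higher numbered 3 as deposited, against 0 under the methods' t-test, cyclic loess, quantile normalization and centring on the median or on the olfactory and vomeronasal receptor genes, and 0 to 4 leaving out 1 sample (0 without Axin2-/GFP- replicate 1 or 2, 4 without Axin2+/GFP+ replicate 3 and 1 without any other). The 4 called without Axin2+/GFP+ replicate 3 were Ccl3, Ccl4, Ccl8 and Ccl12, and Ccr3, Ccr4 and Cxcl5 were not called there. With the filter on dim features the count was 0, but that filter removes the 3 genes called as deposited before the fit. Deviations from the population means correlated weakly between samples of the same replicate number (0.03, 0.01 and 0.05). Between samples of unlike number the correlations ran from -0.05 to 0.02. Correlations this weak cannot decide whether samples of the same number were paired. The replicate block gave 1 member higher, Ccl3 (limma, adjusted p = 0.0497). Members called lower numbered 5, against 3 under the methods' t-test, 8 under centring on the receptor genes (adding Ccl9, Ccl17 and Ccr9) and 4 to 6 leaving out 1 sample.

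All genes called higher numbered 926 and lower 2265. They numbered 211 and 518 under the methods' t-test, 441 higher under median centring, 464 higher under the dim filter, 1266 and 1468 lower under quantile normalization and cyclic loess, 210 and 3980 under centring on the receptor genes, and 239 to 852 and 1376 to 2082 leaving out 1 sample, with 288 higher or fewer and 1456 lower or fewer without any 1 Axin2-/GFP- replicate. The share of calls that were higher was 29.0% as deposited, 13.77% under median centring, 16.98% under the dim filter and 5.01% under centring on the receptor genes.

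Over the 4 pathway lists of 65 genes, 5 were called higher and 10 lower. The counts were 1 and 1 under the methods' t-test, 2 and 23 under centring on the receptor genes, 9 and 5 under quantile normalization, 9 and 6 under cyclic loess, 3 higher under median centring and with the replicate block, and 2 to 4 and 6 to 14 leaving out 1 sample, the lowest of each without Axin2-/GFP- replicate 2. The cause of these differences was not tested.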
